A study of Mus musculus with 8 samples.

Results

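Intermediate filament genes were followed in mouse embryonic stem cells (ESCs) after depletion of the acetyltransferase Tip60, the deacetylase Hdac6 or both. The members were 7 genes, Nefl, Nefm, Nefh, Ina, Prph, Nes and Vim, of the 30175 gene names on the array, and they were taken as every non-control probe whose gene name in the scanner files was one of these. This gave 9 probes in 18 spots. Nefl was picked because its signal rose in Tip60 KD (KD, knockdown), so its values in Tip60 KD and in control KD chose it, and every comparison that uses those arrays is given for Nefl as a description with no test.

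The cells were of the E14 line, grown without feeders in serum medium with LIF, and RNA was taken 72 hours after infection with lentivirus carrying short hairpin RNAs. Control KD cells carried a hairpin against the EGFP gene, Tip60 KD cells a hairpin against Tip60 (gene symbol Kat5), Hdac6 KD cells a hairpin against Hdac6, and double KD cells the Tip60 and the Hdac6 hairpins. All 4 groups were infected with hairpin virus, no group was uninfected, and per the study's methods each gene was targeted by its most effective hairpin alone. Each group had 2 biological replicates, A and B, each on 1 array with Cy3 label. The 4 A arrays shared 1 slide and the 4 B arrays another, and each group held the same position on both slides, so that position and group cannot be told apart.

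Intermediate filaments are rope-like cytoskeletal polymers built from coiled-coil proteins, and the set of proteins that a cell makes differs with its type. Neurofilaments of mature neurons are copolymers of the light (Nefl), medium (Nefm) and heavy (Nefh) subunits with alpha-internexin (Ina) or peripherin (Prph), and they set the calibre of axons. Nestin (Nes) is known from neural progenitors and vimentin (Vim) from mesenchymal and many cultured cells, and in the developing neural lineage nestin and vimentin precede the neurofilaments. ESCs themselves are undifferentiated cells in which the neurofilament genes are not characteristic.

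The hairpins lowered their targets. Signals are given as log2 of the background-subtracted signal over the 75th percentile of its array, so that 0 is that percentile, and values under -2.78 were raised to that floor. Kat5 read 1.25 and 1.30 for control KD replicates A and B, -0.10 and -0.08 for those of Tip60 KD, 1.43 and 1.44 for those of Hdac6 KD, and -0.19 and 0.12 for those of double KD. Hdac6 read 2.13 and 2.10, 1.65 and 1.68, -0.37 and -0.40, and 0.21 and 0.26 in the same order. Every array with a Tip60 hairpin lay below every array without one for Kat5, and likewise for Hdac6 and its hairpin. The log2 change of Kat5 from control KD was -1.37 under the Tip60 hairpin alone (limma adjusted p = 0.00108), and that of Hdac6 was -2.50 under its hairpin alone (adjusted p = 0.000278). Hdac6 was also lower under the Tip60 hairpin alone, with a change of -0.45 (adjusted p = 0.00502), and it lay 0.62 higher with both hairpins than with the Hdac6 hairpin alone (adjusted p = 0.0132). The arrays differed in the background that the software subtracted, with medians from 37.2 to 114 intensity units and 21896 to 40609 of 43020 spots well above background. Control KD replicate B had the highest median background and the fewest spots well above it. Control KD also held both places within each slide. Its median was 61.0 on slide A against 37.2 to 39.4 in the knockdowns, and 114 on slide B against 41.4 to 89.0. High background thus went together with control KD.

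Nefh, Prph, Ina and Vim had higher signal in all 3 knockdowns than in control KD, and Nefl lay higher in all 3 as well. The Hdac6 KD rises of Prph and Vim were each called in only 12 of 19 alternative settings. Nes passed the test in no comparison unless the fit took out the difference between slides. With that fit it was called higher in Tip60 KD and in double KD than in control KD. Nefm was too dim to compare. Levels of different probes are not on a common scale and are not compared between genes. Because the RNA came from whole cultures, a few cells with much RNA of a gene and many cells with little cannot be told apart.

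**Figure D1:**
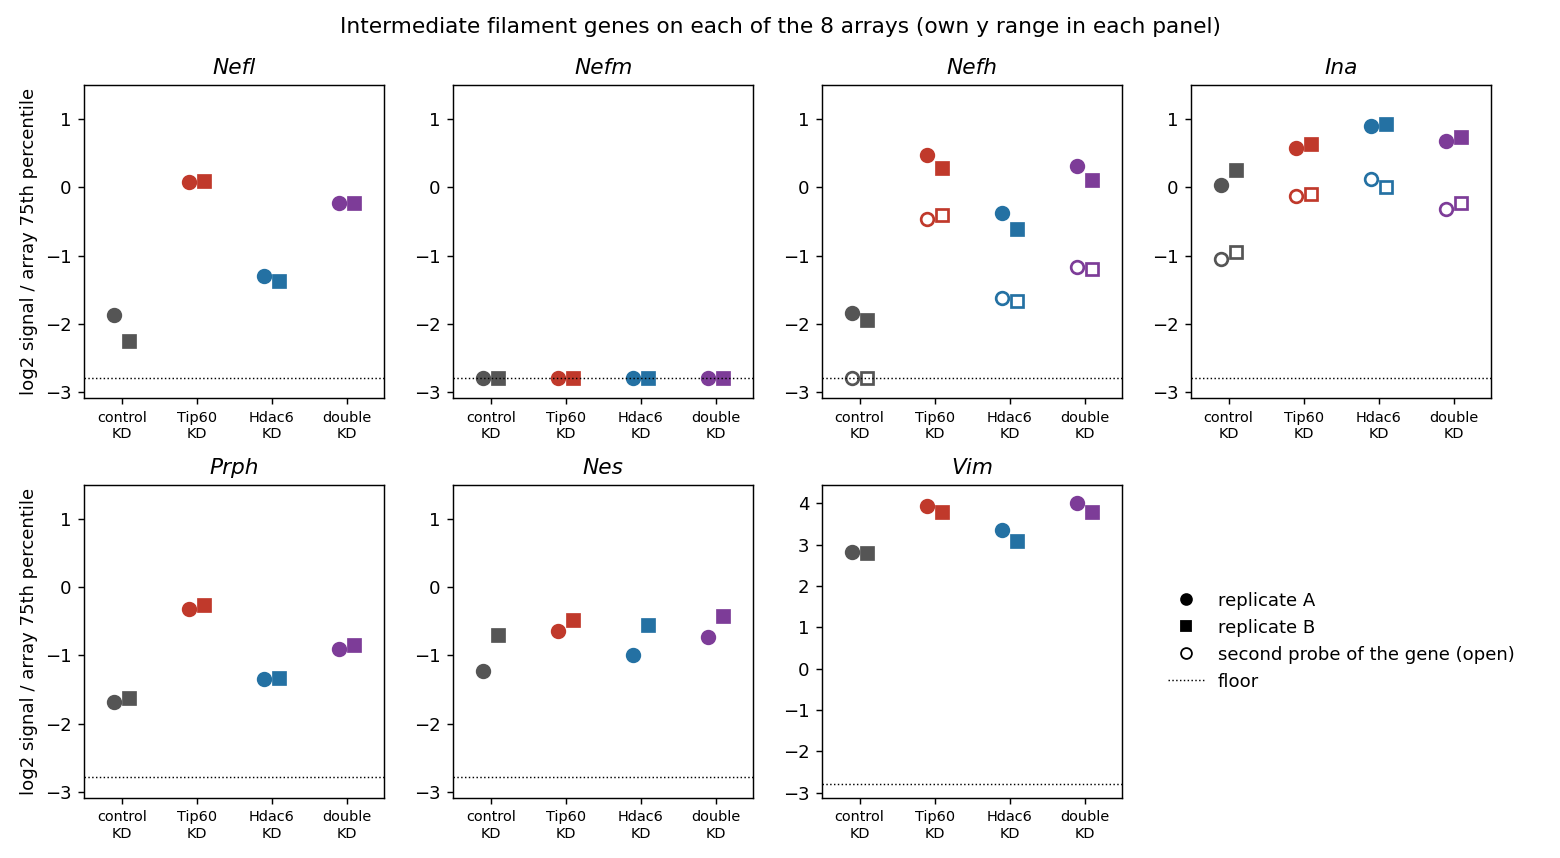
Log2 signal over the array's 75th percentile (y axis, its own range in each panel) of each member on each of the 8 arrays, by group (x axis); circles are replicate A, squares replicate B, open symbols the second probe of Nefh and Ina, and the dotted line the floor at -2.78. The control KD arrays were lowest for Nefl, Nefh, Ina, Prph and Vim, Nes was lower on replicate A than on replicate B in every group, and Nefm lay at the floor on all 8 arrays.

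Nefl, the light subunit without which the other neurofilament proteins do not assemble well, had 1 probe, at chr14:68705638-68705698 (mm9, plus strand). Its log2 signal was -1.87 and -2.24 for control KD replicates A and B, 0.07 and 0.09 for those of Tip60 KD, -1.30 and -1.37 for those of Hdac6 KD, and -0.23 and -0.22 for those of double KD. No groups overlapped, and the order from low to high was control KD, Hdac6 KD, double KD, Tip60 KD. As a description, the Tip60 KD mean lay 2.14 above control KD (a 4.41-fold difference), the 27th largest rise of the 18059 genes tested, the Hdac6 KD mean 0.73 above it and the double KD mean 1.83 above it. Within slides, the Tip60 KD array lay 1.95 above the control KD array on slide A and 2.33 above it on slide B. Before background subtraction the spot read 433 and 322 intensity units on the control arrays and 1744 and 1420 on the Tip60 KD arrays, against subtracted backgrounds of 54.3 and 70.3, and 37.5 and 60.8. Under the settings that treat background differently the rise was 1.95 to 2.13.

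The difference between double KD and Hdac6 KD takes no value from the arrays that chose Nefl, although the spread in the fit of all 8 arrays was estimated with them too. The Tip60 hairpin, added to the Hdac6 hairpin, here went with a 1.11 higher log2 level of Nefl (SE 0.13, a 2.15-fold difference, limma adjusted p = 0.0149, 2 arrays a group), and both double KD arrays lay above both Hdac6 KD arrays. The difference was 1.07 on slide A and 1.15 on slide B. The adjusted p ranged from 0.00390 to 0.119 over 19 alternative settings and stayed under 0.1 in 17. The call was lost without Hdac6 KD replicate B (0.116) and when only those 4 arrays were fitted, which leaves out all the arrays that chose Nefl (0.119).

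The study's supplementary table lists a primer pair for Nefl and one for Nestin, used for quantitative PCR. They are shown because they are the second way in which these RNAs could be read, and their readings were not used here.
Nefl forward: agctagaggacaagcagaatgc
Nefl reverse: gcaagccactgtaagcagaac
Nestin forward: tggcacacctcaagatgtccctta
Nestin reverse: aaggaaatgcagcttcagcttggg

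Nefh, the heavy neurofilament subunit with a long tail that is phosphorylated in axons, had the largest rises among the tested members. It had 2 probes on the minus strand of chromosome 11, and the brighter one, at chr11:4838758-4838817 near the end of the transcript, was used in the test. Its log2 signal was -1.84 and -1.95 for control KD replicates A and B, 0.48 and 0.29 for those of Tip60 KD, -0.37 and -0.60 for those of Hdac6 KD, and 0.31 and 0.11 for those of double KD. Control KD lay lowest and Hdac6 KD next, and the arrays of double KD and Tip60 KD overlapped. The log2 change from control KD was 2.27 under the Tip60 hairpin (SE 0.13, adjusted p = 0.000574), 1.41 under the Hdac6 hairpin (adjusted p = 0.00279) and 2.10 under both (adjusted p = 0.00103). These were the 20th, 41st and 16th largest rises among the genes tested. All 3 calls held in all 19 alternatives, although the settings that treat background differently gave 1.89 to 2.02 in Tip60 KD.

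The second Nefh probe, at chr11:4839396-4839455 and farther upstream in the transcript, lay at the floor on both control KD arrays and was well above background on 1 of them. It read -0.46 and -0.41 under the Tip60 hairpin, -1.62 and -1.66 under the Hdac6 hairpin, and -1.16 and -1.19 under both. Against the floor these are rises of at least 2.35, 1.14 and 1.61, given as bounds with no test because the probe passed the filter through the knockdown arrays alone. Both probes thus gave the same order of the 4 group means, and here the 2 highest groups separated. Double KD lay 0.74 below Tip60 KD (within slides A and B -0.70 and -0.78), also given with no test. In the fit of the brighter probe that difference was -0.17 (adjusted p = 0.598).

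The probes of Nefm, Nefh (the upstream one) and Prph are shown because they show what the array measured in these transcripts. Each held a reading frame with no stop codon inside it, and the Prph probe ended in a stop codon in such a frame, printed in capitals. No annotation of exons was used here to place them.
Nefm, chr14:68738193-68738252, minus strand: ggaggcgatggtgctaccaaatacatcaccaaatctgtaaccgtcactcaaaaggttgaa
Nefh, chr11:4839396-4839455, minus strand: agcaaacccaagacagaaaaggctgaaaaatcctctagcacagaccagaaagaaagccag
Prph, chr15:98889042-98889101, plus strand: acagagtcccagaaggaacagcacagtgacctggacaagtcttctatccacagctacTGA

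Nefm, the medium subunit, was not tested because its probe lay under the floor on all 8 arrays, although it was printed in 10 spots. Its mean spot intensity before background subtraction was 93.6 and 127 units for control KD replicates A and B, 113 and 159 for those of Tip60 KD, 86.1 and 150 for those of Hdac6 KD, and 93.7 and 123 for those of double KD. After subtraction it was 28.6 and 14.1, 76.8 and 68.6, 48.3 and 53.8, and 54.4 and 80.8 in the same order. The control KD arrays were thus lowest after subtraction, and on each slide they had the highest subtracted background at these spots. All 10 spots were well above background on Tip60 KD A, Hdac6 KD A and both double KD arrays, and at most 1 was on each of the other 4. These were arrays with a low subtracted background, 36.4 to 41.8 intensity units at these spots against 64.0 to 113 on the other arrays.

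Prph, the peripherin gene of peripheral neurons, had a log2 signal of -1.68 and -1.63 for control KD replicates A and B, -0.31 and -0.27 for those of Tip60 KD, -1.35 and -1.33 for those of Hdac6 KD, and -0.90 and -0.85 for those of double KD. No groups overlapped, in the same order as for Nefl. Prph was 1.36 higher in Tip60 KD than in control KD (SE 0.07, adjusted p = 0.000510) and 0.78 higher in double KD (adjusted p = 0.00201). The rise of 0.31 in Hdac6 KD (adjusted p = 0.0273) was called in 12 of 19 alternatives, with adjusted p from 0.00576 to 0.503. It was 0.14 under both settings that treat background differently and 0.13 with the values of the series matrix, none of them called, and the call was lost without control KD replicate A (adjusted p = 0.115), Hdac6 KD replicate A (0.104) or Hdac6 KD replicate B (0.128).

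Ina, alpha-internexin, which appears early in differentiating neurons, had another order of groups. Its brighter probe, at chr19:47098781-47098840, read 0.03 and 0.26 for control KD replicates A and B, 0.58 and 0.64 for those of Tip60 KD, 0.89 and 0.93 for those of Hdac6 KD, and 0.67 and 0.73 for those of double KD. Hdac6 KD was highest, and no groups overlapped. Ina was 0.46 higher than in control KD under the Tip60 hairpin (SE 0.10, adjusted p = 0.0151), 0.76 higher under the Hdac6 hairpin (adjusted p = 0.00575) and 0.56 higher under both (adjusted p = 0.0112), each called in all 19 alternatives. The second probe, at chr19:47099350-47099409, read -1.05 and -0.95, -0.13 and -0.09, 0.12 and 0.01, and -0.32 and -0.24 in the same groups. It too was highest in Hdac6 KD, with rises of 0.89, 1.06 and 0.72 over control KD in the order Tip60, Hdac6 and double KD, and it placed double KD below Tip60 KD where the brighter probe placed it above.

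Vim, at chr2:13504232-13504291, encodes the filament protein of mesenchymal cells. Vimentin RNA read 2.82 and 2.81 for control KD replicates A and B, 3.93 and 3.80 for those of Tip60 KD, 3.36 and 3.10 for those of Hdac6 KD, and 4.01 and 3.79 for those of double KD, so that control KD lay lowest, Hdac6 KD next, and Tip60 KD and double KD overlapped. Its rise from control KD was 1.04 in Tip60 KD (SE 0.12, adjusted p = 0.00247) and 1.09 under both hairpins (adjusted p = 0.00355). Within slides it was 1.10 and 0.99 for Tip60 KD and 1.19 and 0.98 for double KD. The rise of 0.41 in Hdac6 KD (adjusted p = 0.0657) held in 12 of 19 alternatives, with adjusted p from 0.00875 to 0.240. That call was lost without control KD replicate A (adjusted p = 0.192), control KD replicate B (0.197) or Hdac6 KD replicate A (0.240).

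Nes, at chr3:87784303-87784362, read -1.22 and -0.70 for control KD replicates A and B, -0.64 and -0.48 for those of Tip60 KD, -0.996 and -0.56 for those of Hdac6 KD, and -0.72 and -0.43 for those of double KD. Replicate A was below replicate B in every group, by 0.16 to 0.52, and Tip60 KD was the only knockdown whose arrays both lay above both control KD arrays. The changes from control KD were 0.40, 0.19 and 0.39 (SE 0.23, adjusted p = 0.261, 0.657 and 0.298). Each change was positive within both slides. On slides A and B it was 0.58 and 0.22 for Tip60 KD. For Hdac6 KD the values were 0.23 and 0.14, for double KD 0.50 and 0.28. Leaving out 1 array leaves its group on 1 slide, so that the difference between slides enters the change. Without control KD replicate A the changes were 0.14, -0.07 and 0.13, and without control KD replicate B 0.66, 0.45 and 0.65. Without Hdac6 KD replicate A or B the Hdac6 KD change was 0.41 or -0.03. With the replicate letter as a block, which takes out the difference between slides, the changes stayed the same and the adjusted p was 0.0180 in Tip60 KD and 0.0228 in double KD. Over all 19 settings the adjusted p ran from 0.0180 to 0.773 in Tip60 KD and from 0.0228 to 0.803 in double KD. The neural progenitor filament thus did not pass the test without the block.

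**Figure D2:**
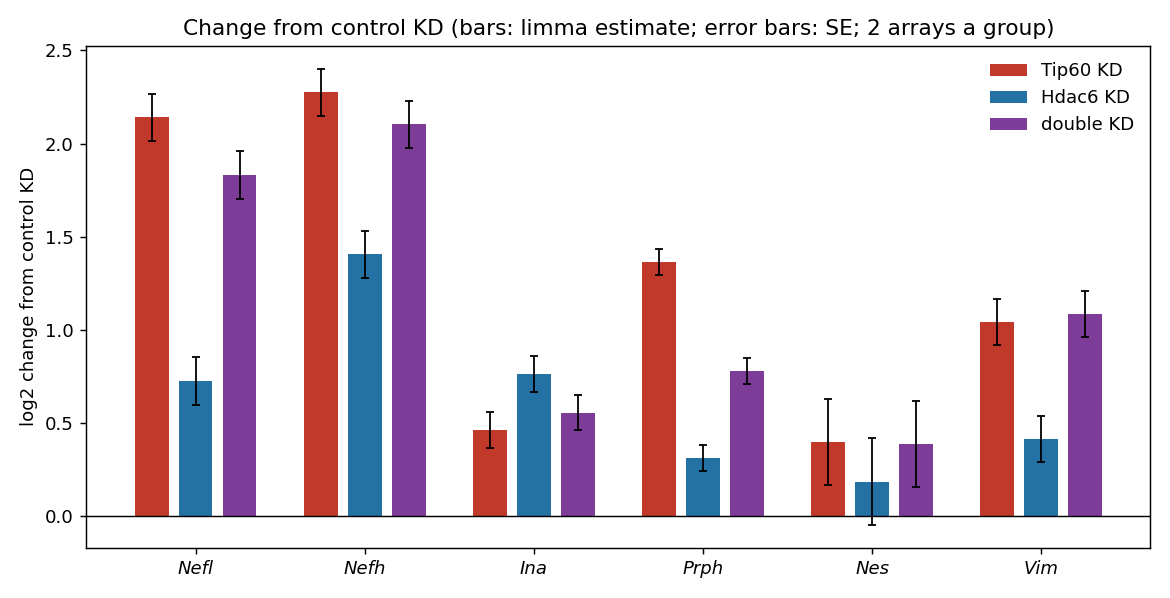
Log2 change from control KD (y axis) of the 6 members with a signal above the floor (x axis) in each knockdown; bars are the limma estimate, error bars its SE, with 2 arrays a group. Nefl is drawn as a description, since it was chosen on its rise in Tip60 KD; the tallest tested bars are those of Nefh, at 2.27, 1.41 and 2.10, and Ina alone is tallest in Hdac6 KD.

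Counted over the 5 members that could be tested against control KD, 4 were called higher and 0 lower in Tip60 KD, where 40.4% of all genes were called, with 19.1% of all genes called higher and 21.3% lower. The same 4, Nefh, Prph, Ina and Vim, were called higher in Hdac6 KD, against 30.0% of all genes called (14.0% higher), and in double KD, against 33.7% (16.0% higher). In Hdac6 KD the calls of Prph and Vim were each kept in only 12 of 19 alternatives. The median log2 change of the 5 was 1.04 under the Tip60 hairpin, 0.41 under the Hdac6 hairpin and 0.78 under both, beside medians of 0.05, 0.02 and 0.05 over all genes tested. All 3 comparisons share the control KD arrays.

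The Tip60 and Hdac6 knockdowns were then set against each other. Under the Tip60 hairpin Nefh, Prph and Vim stood higher than under the Hdac6 hairpin, with differences of 0.87 (adjusted p = 0.0102), 1.05 (0.00225) and 0.63 (0.0225), and Nefl lay 1.41 higher as a description. Ina was 0.30 lower (adjusted p = 0.0896), a call that only 6 of 19 alternatives kept. Of all genes, 24.1% were called in this comparison, 12.1% higher and 11.9% lower. The Vim call was lost without Tip60 KD replicate A (adjusted p = 0.106) and without Hdac6 KD replicate B (0.106), and the Ina call without any 1 of Tip60 KD A, Tip60 KD B, Hdac6 KD A, Hdac6 KD B, double KD A and double KD B (adjusted p from 0.130 to 0.287).

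Adding the Tip60 hairpin to the Hdac6 hairpin went with higher Nefl, Nefh, Prph and Vim. In double KD these 4 of the 6 members tested were higher than in Hdac6 KD, where 10.9% of all genes were called, 5.93% higher and 5.01% lower. The median over the 6 was 0.57, beside 0.01 over all genes. The log2 differences were 1.11 for Nefl, 0.70 for Nefh (adjusted p = 0.0389), 0.47 for Prph (adjusted p = 0.0243) and 0.67 for Vim (adjusted p = 0.0393), while Ina was -0.21 (adjusted p = 0.303) and Nes 0.20 (adjusted p = 0.780). The second Ina probe, with each probe fitted by itself, differed by -0.34 (limma adjusted p = 0.0759). With the replicate block the brighter Ina probe was called lower too (limma adjusted p = 0.0889). The calls of Nefh, Prph and Vim were lost when any 1 of the 4 arrays of these groups was left out, with adjusted p from 0.103 to 0.199, and over all 19 settings their adjusted p ranged from 0.00269 to 0.199.

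With 1 probe a gene, adding the Hdac6 hairpin to the Tip60 hairpin went with 1 call among these genes. Double KD differed from Tip60 KD by -0.59 for Prph (SE 0.07, adjusted p = 0.0466, within slides -0.59 and -0.58), and it was the 1 member called of 5 tested, beside 4.10% of all genes, 1.47% higher and 2.62% lower. This call was lost without any 1 of the 8 arrays (adjusted p from 0.124 to 0.250), and the adjusted p over the 19 settings ran from 0.00896 to 0.350. The log2 differences of Nefh, Ina, Nes and Vim were -0.17, 0.09, -0.01 and 0.04 (adjusted p = 0.598, 0.742, 1 and 0.989), and Nefl lay 0.31 lower as a description. The Nefh value is that of its brighter probe. Its second probe differed by -0.74, given with no test, and the mean of its probes by -0.45 (limma adjusted p = 0.0743). A p over the threshold does not show that these levels were equal.

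The change that went with the Tip60 hairpin was smaller when the Hdac6 hairpin was present. For Nefh it was 2.27 without and 0.70 with it, a difference of -1.58 (SE 0.18, limma adjusted p = 0.00890). For Prph it was 1.36 and 0.47, a difference of -0.90 (SE 0.10, adjusted p = 0.00838), and for Ina 0.46 and -0.21, a difference of -0.67 (SE 0.14, adjusted p = 0.0291). Vim (1.04 and 0.67, difference -0.37, adjusted p = 0.224) and Nes (0.40 and 0.20, difference -0.20, adjusted p = 0.769) were not called, although the Vim difference was called with the replicate block (adjusted p = 0.0430, the lowest over 17 alternatives, whose highest was 0.436), and for Nefl the changes were 2.14 and 1.11. In this contrast 23.0% of all genes were called, 12.4% higher and 10.7% lower. The differences of Nefh and Prph were called in all 17 alternatives and that of Ina in 16, with an adjusted p from 0.00526 to 0.102, the last without Hdac6 KD replicate B. The contrast was added after the data had been seen.

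**Figure D3:**
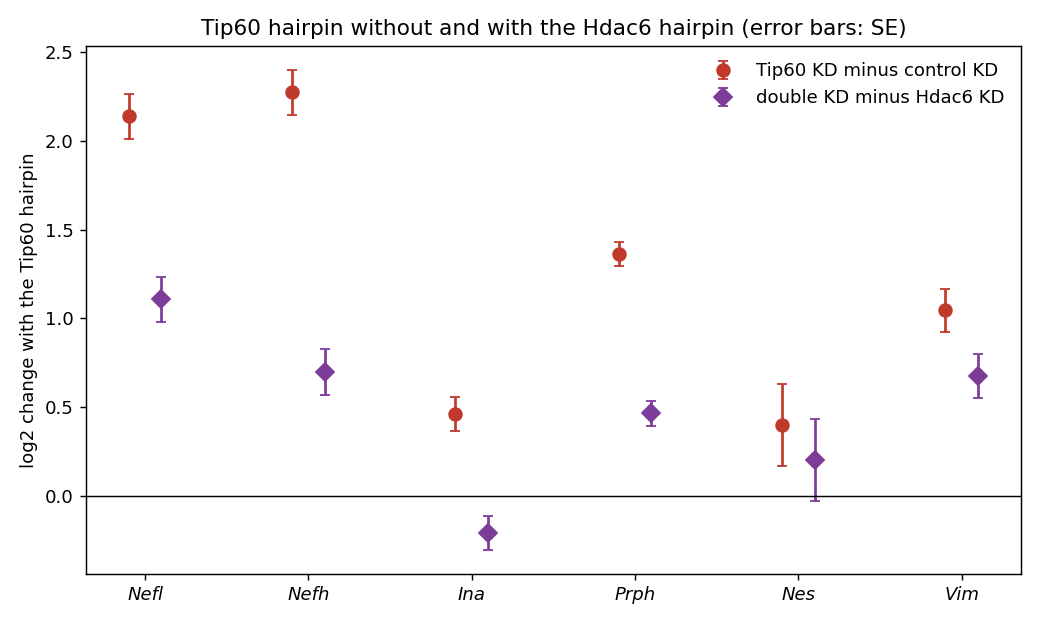
Log2 change that went with the Tip60 hairpin (y axis) for 6 members (x axis), in cells without the Hdac6 hairpin (circles, Tip60 KD minus control KD) and with it (diamonds, double KD minus Hdac6 KD); error bars are the SE of the limma estimate, 2 arrays a group. Each diamond lies below its circle, from 2.27 to 0.70 for Nefh and from 0.40 to 0.20 for Nes.

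Promoter windows of the 4 members with an entry in the RefSeq table (GRCm38.p6) are shown. They set Vim, Prph and Ina, each called higher in all 3 knockdowns in the fit without the replicate block, beside Nes, not called in that fit. Nefl, Nefm and Nefh are named only. Each window is the 100 bases before the annotated transcript start, plus strand, and capitals mark matches, on either strand, to TATAAA (the core of a TATA box), CCAAT and GGGCGG (a GC box, CCGCCC on the other strand).
Vim, chr2:13574211-13574310: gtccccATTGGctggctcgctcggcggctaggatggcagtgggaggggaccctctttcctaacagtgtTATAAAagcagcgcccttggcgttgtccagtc
Prph, chr15:99055074-99055173: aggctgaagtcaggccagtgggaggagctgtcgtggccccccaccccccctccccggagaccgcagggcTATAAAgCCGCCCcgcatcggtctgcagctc
Ina, chr19:47014581-47014680: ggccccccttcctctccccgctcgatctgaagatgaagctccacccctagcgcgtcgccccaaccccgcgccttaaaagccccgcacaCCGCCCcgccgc
Nes, chr3:87970993-87971092: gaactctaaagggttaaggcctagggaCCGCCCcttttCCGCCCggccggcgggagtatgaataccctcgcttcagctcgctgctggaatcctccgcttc

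TATAAA was found in the Vim and Prph windows, starting 32 and 31 bases before the start, and in 5.56% of the 32851 promoter windows of the same length. GGGCGG was found in the Prph, Ina and Nes windows and in 24.7% of all, and CCAAT in the Vim window and in 18.9% of all. The windows held 60.0% (Vim), 70.0% (Prph), 71.0% (Ina) and 61.0% (Nes) G and C, where the median of all windows was 55.0%. A match is a description of the letters and not a site of binding.

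Among other filament genes, the simple-epithelial keratins, which form the filaments of epithelia, moved both ways. Krt8, the type II keratin that pairs with Krt18, rose over control KD by 1.26 under the Tip60 hairpin (adjusted p = 0.00365), by 0.75 under the Hdac6 hairpin (0.0300) and by 1.15 under both (0.00720). Krt18 itself changed by -0.26, -0.33 and -0.20 in that order (adjusted p = 0.0306, 0.0206 and 0.0833), and Krt19, a type I keratin, by -0.98, -0.63 and -0.89 (0.00331, 0.0215 and 0.00655). Krt7 fell to the floor on all 6 knockdown arrays, from -2.33 and -2.21 in control KD, which is a fall to a bound, with a change of -0.51 or beyond, in a gene that passed the filter through the control KD arrays alone. In each knockdown 1 keratin was thus called higher and 3, Krt7 included, lower of 5 tested. Krt20 and Krt23 were too dim to test, and the median change was -0.26, -0.33 and -0.20. The shares of all genes called were 40.4%, 30.0% and 33.7% in the same order.

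Of the nuclear lamins, which line the nuclear envelope, Lmnb1, a B-type lamin, changed by -0.40 in Tip60 KD (adjusted p = 0.0132), and Lmna, which encodes the A-type lamins, was 0.51 higher with the Hdac6 hairpin (0.00632) and 0.32 higher with both (0.0199). Of 3 lamins, 1 was called in each knockdown, near the 40.4%, 30.0% and 33.7% of all genes called. The count in Tip60 KD was 0 with the series matrix values and 2 without Hdac6 KD replicate A or B, and that in Hdac6 KD was 2 without Hdac6 KD replicate B. Among the other type III and IV and beaded filament genes, Gfap, Synm and Bfsp1 could be tested of 6, and Bfsp1, a beaded filament protein of the lens, was called higher in Hdac6 KD. It lay at the floor in control KD replicate A and read -2.54 in replicate B. It could not pass the filter through the control KD arrays alone, so that its rise of at least 0.59 is a bound. The call was lost when values under the floor were left missing. The plakins, which tie filaments to membranes and to other cytoskeletal fibres, gave 3 calls of 7 in Tip60 KD, near the 40.4% of all genes called there (changes of 0.22 for Dst, -0.24 for Macf1 and -0.76 for Eppk1, adjusted p = 0.0862, 0.0720 and 0.0178). In Hdac6 KD limma called 0 of them, with 2 at an unadjusted p under 0.05, and in double KD it called 1 (Evpl, 0.34 higher, adjusted p = 0.0741). The plakin count in Tip60 KD was 1 without either array of Tip60 KD or of Hdac6 KD, that in double KD was 0 without any 1 array of control KD, Tip60 KD or double KD, and Bfsp1 was not called without any 1 array of control KD, Tip60 KD or Hdac6 KD.

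Most of the neuron markers tested were called higher in Tip60 KD and in double KD. Of 14 tested, 11 were called higher and 0 lower in Tip60 KD, 5 higher and 1 lower in Hdac6 KD, and 10 higher and 1 lower in double KD, with median changes of 0.57, 0.22 and 0.64. Over all genes 19.1%, 14.0% and 16.0% were called higher and 21.3%, 16.0% and 17.6% lower in these comparisons. Gap43, a growth cone protein, is counted among the higher but lay at the floor on both control KD arrays and passed the filter through the knockdown arrays alone, so that its differences of at least 2.61, 1.84 and 2.60 are bounds. Stmn3, a stathmin that acts on microtubules, is counted too, but read -2.64 in control KD replicate A and lay at the floor in replicate B. It could not pass the filter through the control KD arrays alone, so that its rises of at least 1.59, 1.19 and 1.28 are bounds. Tubb3, the neuronal beta-tubulin, rose by 1.94, 0.51 and 1.75 (adjusted p = 0.000688, 0.0410 and 0.00144). Uchl1, a neuronal ubiquitin hydrolase, rose by 1.30, 0.48 and 0.94 (0.000632, 0.0113 and 0.00177). The 1 lower call was Elavl3, an RNA-binding protein of early neurons, named after its values were seen, with -0.84 under the Hdac6 hairpin and -0.58 under both (0.00404 and 0.00859). Between double KD and Hdac6 KD, where Nefl was tested, 7 of the 14 were higher and 0 lower, with a median of 0.41. Of all genes, 10.9% were called there, 5.93% higher and 5.01% lower. The marker count fell when any 1 of those 4 arrays was left out. It was 0 when only those 4 arrays were fitted, as was the count over all genes.

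The log2 of the summed signal of the 14 neuron markers was 4.57 to 4.68 in control KD, 5.11 to 5.23 in Tip60 KD, 4.64 to 4.65 in Hdac6 KD and 5.07 in both double KD arrays. This sum adds probes that are not on a common scale and was set largely by Snap25 and Stmn2. Dcx, a microtubule protein of young migrating neurons, and Syt1, a synaptic vesicle protein, were not above the floor on enough arrays to be tested. Without Tip60 KD replicate A 7 of the 14 were called in Tip60 KD, and with the replicate block 12 were called in Hdac6 KD. The part of these markers in the changes of Nefl, Nefh, Prph and Ina was not tested.

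**Figure D4:**
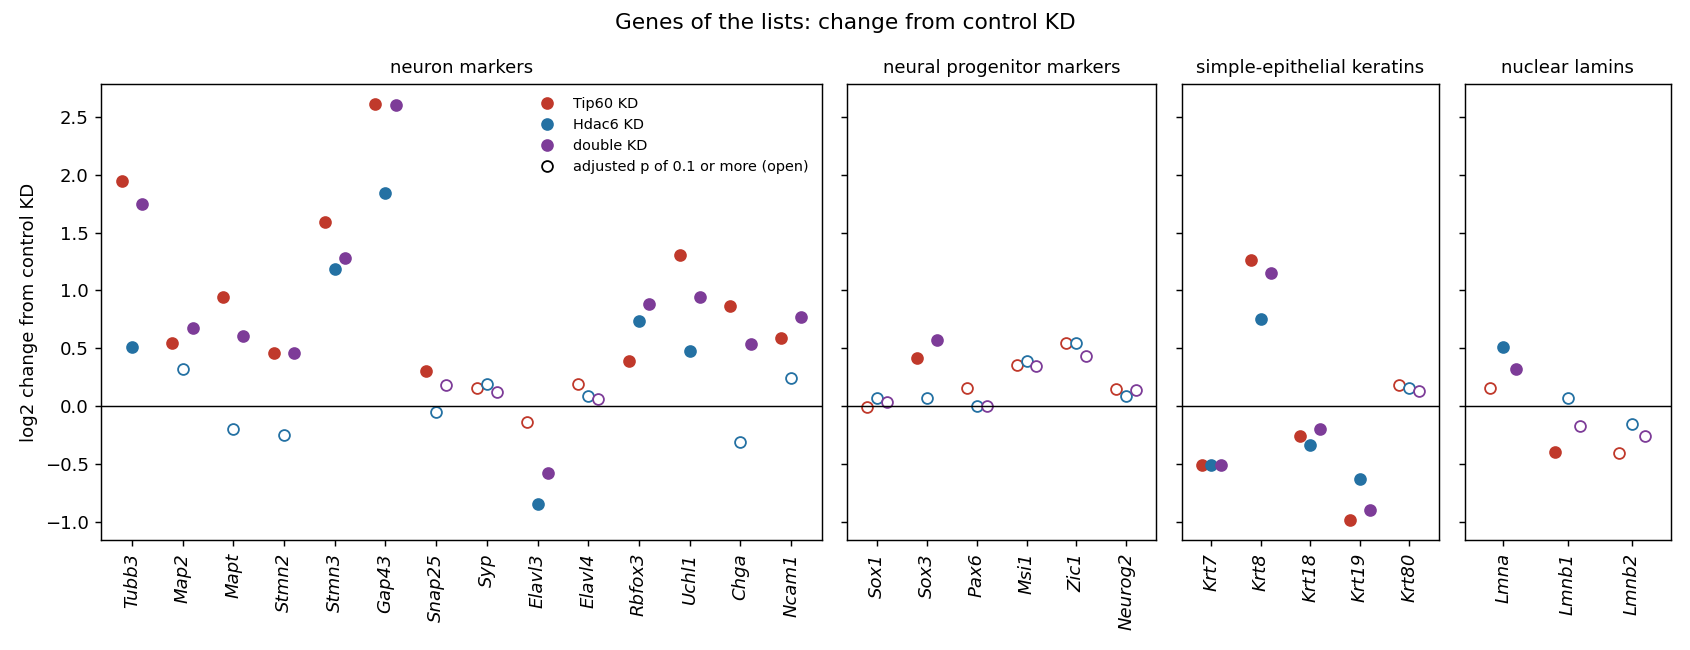
Log2 change from control KD (y axis) of each tested gene of 4 lists (x axis) in the 3 knockdowns; filled points passed an adjusted p under 0.1 and open points did not. Most neuron markers lie above 0 in Tip60 KD and double KD, Sox3 is the 1 filled neural progenitor gene, Krt8 lies above and Krt7, Krt18 and Krt19 below 0.

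Neural progenitor markers gave few calls beside Nes. Of 6 tested of 11, only Sox3 was called, in Tip60 KD and double KD, where 40.4% and 33.7% of all genes were called. Sox3 lay at the floor on both control KD arrays and passed the filter through the knockdown arrays alone, so that its differences of at least 0.41 and 0.57 are bounds. In Hdac6 KD, where 30.0% of all genes were called, limma called 0 of these markers, with 0 also at an unadjusted p under 0.05. Fabp7, Hes5, Pou3f2, Pou3f3 and Olig2 were too dim to test, and Pax6 and Neurog2 were at the floor in control KD. The log2 of the summed signal of the 6 tested genes was 1.05 to 1.51 in control KD, 1.40 to 1.63 in Tip60 KD, 1.33 to 1.71 in Hdac6 KD and 1.34 to 1.68 in double KD, which overlap. With the replicate block 4, 2 and 3 of the 6 were called in the order Tip60, Hdac6 and double KD, and without control KD replicate B 2 were called in Tip60 KD and 1 in Hdac6 KD. In Tip60 KD and double KD 0 were called when values under the floor were left missing.

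Mesenchyme and fibroblast markers, given beside Vim, moved both ways. Of 12 tested, 4 were called higher and 2 lower in Tip60 KD, 1 higher and 3 lower with the Hdac6 hairpin, and 4 higher and 2 lower with both hairpins, with median changes of 0.09, -0.05 and 0.18. Among all genes 19.1%, 14.0% and 16.0% were called higher and 21.3%, 16.0% and 17.6% lower in these comparisons, so that calls in both directions were common to all genes. Cdh2, N-cadherin, rose by 1.20, 1.04 and 1.37 (adjusted p = 0.00225, 0.00654 and 0.00280), and Snai1, a repressor of epithelial genes, lay at the floor in control KD and Hdac6 KD and at least 1.00 and 0.84 above it in Tip60 KD and double KD, bounds in a gene that passed the filter through those arrays alone. Fn1, fibronectin, changed by -0.53 under the Tip60 hairpin and by -0.31 under both (0.0122 and 0.0800). The log2 of the summed signal of the 12 markers, set largely by Fn1, was 6.23 to 6.34 in control KD, 5.75 to 5.90 in Tip60 KD, 6.08 to 6.14 in Hdac6 KD and 5.95 to 6.11 in double KD. Col1a1 read -2.33 and -2.68 in control KD, near the floor, and was 0.96 and 0.79 higher in Tip60 KD and double KD (adjusted p = 0.00622 and 0.0163). Pdgfrb changed by -1.10 in Hdac6 KD and by -0.37 in double KD (adjusted p = 0.00280 and 0.0468). The fibroblast genes Col1a2 and Pdgfra were too dim to test. The part of the mesenchyme and fibroblast markers in the change of Vim was not tested.

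ESC markers stayed high. Of 11 tested, 5 were called higher and 1 lower in Tip60 KD, 3 higher and 0 lower with the Hdac6 hairpin, and 4 higher and 1 lower with both hairpins. Among all genes 40.4%, 30.0% and 33.7% were called in these comparisons, with 19.1%, 14.0% and 16.0% called higher. The log2 of the summed signal of the 11 markers, in which Dppa5a weighs most, lay between 8.33 and 8.47 on all arrays. Nanog and Tdgf1 carried an outlier mark on Tip60 KD replicate A, so that their fit and that sum lack this array. Pou5f1 was 0.99, 0.46 and 0.62 higher (adjusted p = 0.00256, 0.0427 and 0.0155). The lower calls were Dppa5a in Tip60 KD, with -0.23 (adjusted p = 0.0881), and Sox2 in double KD, with -0.36 (adjusted p = 0.0592). Leaving out control KD A, Hdac6 KD A or Hdac6 KD B gave 3 calls in Tip60 KD, and leaving out control KD A or B or double KD A or B gave 2 or 3 in double KD. Primitive endoderm markers, of which Gata6, Sox7, Dab2, Foxa2 and Cubn were too dim to test, gave 1 call higher (Col4a1, 1.61, 0.42 and 1.45) and 1 lower (Lamb1, -0.83, -0.34 and -0.66) of 5 in each knockdown (adjusted p from 0.000472 to 0.0285), and in Hdac6 KD 1 call was left without control KD A, control KD B or Hdac6 KD A.

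Genes whose pattern over the 8 arrays was most like that of Nefl, by Pearson's r among 2889 genes above the floor on all arrays with a range of at least 1, were Bcorl1 (0.996), Alox5ap (0.996), Tubb3 (0.994), Vpreb3 (0.993) and Itga5 (0.992). Those most like Vim were Rcor2 (0.993), Cstf3 (0.992), Tctn3 (0.989), 3830406C13Rik (0.989) and Lnpep (0.988). Those most like Nes were Scml2 (0.978), Pdyn (0.972), AK158451 (0.970), Zp3 (0.968) and Ptprcap (0.967). The points are 8 arrays in 4 groups that share slides and control, and the order is a description of likeness.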

How the data were processed

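The authors amplified total RNA, labelled it with Cy3 and hybridised it to Agilent 4X44K mouse arrays, read with Feature Extraction 10.7.1.1. Per the file headers, the deposited values are fluorescence intensity, as raw spot signals and as a processed signal with background subtracted and a spatial trend removed, without scaling between arrays. Probe positions are on mm9. The deposited series matrix holds log2 values (array medians 8.19 to 8.20) and served as an alternative.

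Spots with an outlier mark were dropped and spots of a probe averaged. The processed signal was divided by its array's 75th percentile, raised to a floor of 0.145 (the highest, over arrays, of the lowest signal well above background) and taken to log2. Probes entered the test with at least 2 arrays on which they passed both the software's background mark and the floor, and the probe of highest mean stood for its gene, leaving 18059 genes. No spot was saturated. RefSeq (GRCm38.p6) named 27234 of 39429 probes, and the others kept the files' names. The number of arrays limits the precision.

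Each comparison was a contrast in 1 limma fit of all 8 arrays (version 3.58.1, lmFit and eBayes, no block) in R 4.3.3, two-sided, with Benjamini-Hochberg adjustment over all genes at 0.1. In simulated data 200 genes were changed by 1 on the log2 scale. The fit recovered 121 to 145 of them in the comparisons of groups, with 10 to 18 false calls. For the difference of the Tip60 hairpin effect it recovered 77, with 5 false calls. Many changes of this size were thus missed. The replicate letters, each 1 slide, paired the arrays: deviations from the group means correlated between groups by 0.651 to 0.799 over 6 pairs.

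The members and gene lists were chosen with earlier results of these data known. All members are named, and of each list at most 6 genes called against control KD, besides those at the floor or too dim. A gene of the neural progenitor list is not reported here. Alternatives were normexp with an offset of 50, negative control spots as background, quantile normalization, the series matrix, a floor 10 times lower, missing values in place of the floor, no filter, a gene's probes averaged, each probe by itself, only the arrays compared, the replicate block, and leaving out each array.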

Additional observations from a re-analysis of the deposited data

Results flagged for a closer look

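The Tip60 hairpin effect differed with and without the Hdac6 hairpin, by a test of the difference, for 3 members. The difference was -1.58 for Nefh (2.27 without the Hdac6 hairpin and 0.70 with it), -0.90 for Prph (1.36 and 0.47) and -0.67 for Ina (0.46 and -0.21). Each was on the log2 scale, with the same sign on both slides. With 2 arrays a group no array could be tested as an outlier within its group.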

How the results depend on the processing

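The 4 members called higher in Tip60 KD and in double KD against control KD were called under all 19 alternatives, and with the replicate block, which pairs arrays by slide, the count was 5 in both, Nes being added. In Hdac6 KD against control KD 2 members in place of 4 were called with normexp and with negative control spots as background, and 2 to 4 when 1 array was left out (2 without control KD A or Hdac6 KD A). In double KD against Hdac6 KD the count was 4, with 0 when only these arrays were fitted, 0 to 4 when 1 array was left out (0 without Hdac6 KD B, 1 without Hdac6 KD A, double KD A or double KD B) and 5 with the block, Ina being added. In double KD against Tip60 KD the count was 1, with 0 under normexp, the series matrix, only these arrays and the loss of any 1 array (0 to 0), and 2 with a gene's probes averaged. In Tip60 KD against Hdac6 KD the count was 4, and 2 to 4 when 1 array was left out (2 without Tip60 KD A or Hdac6 KD B). Of the members' single values and p-values in the 6 comparisons of groups under the alternatives, 612 kept direction and call, 59 lost the call, 4 gained it and 9 moved by more than the replicate spread. None changed sign among called values. For the difference of the Tip60 hairpin effect Vim gained the call with the replicate block, Ina lost it without Hdac6 KD B and Nefl, untested, moved without control KD A or B (-0.85 to -1.22). The causes were not tested. Over all genes the replicate block raised the calls from 740 to 4807 in double KD against Tip60 KD and from 1974 to 5331 in double KD against Hdac6 KD, and from 5412 to 9545 and from 6079 to 10001 in Hdac6 KD and in double KD against control KD, and from 4346 to 7489 in Tip60 KD against Hdac6 KD. Leaving out 1 array lowered these counts to 0 to 12, 197 to 1428, 2835 to 5077, 3873 to 5672 and 2088 to 3914, in the same order, and that in Tip60 KD against control KD from 7293 to between 5386 and 7034, so that the shares of all genes called given beside the members move with them. Signals near background set the limit for Nefm and for the lower group of the second Nefh probe.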
